A study of Arabidopsis thaliana with 16 samples.

Results

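Binding of WRKY40 to the nuclear genome of Arabidopsis thaliana seedlings was compared between untreated seedlings (0 h) and seedlings given flg22 for 2 h. All peaks of the 4 WRKY40-HA lists on chromosomes 1 to 5 were taken, which gave 5313 of the 16600 peaks in the 12 lists of the series. They comprised 4 and 20 peaks at 0 h, and 2017 and 3272 peaks at 2 h, in replicates 1 and 2. Peaks of both 2 h lists that overlapped by at least 1 bp were merged into 3549 sites. Of these, 1658 held a peak of each replicate and are called reproducible sites.

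The series measured DNA binding of WRKY18, WRKY33 and WRKY40 by ChIP-seq, in which chromatin is precipitated with an antibody and the recovered DNA is sequenced. The WRKY40-HA seedlings were a complementation line in the Col-0 background, in which WRKY40 carries an HA tag, a short peptide recognised by the anti-HA antibody. The labels name neither the mutations of the line nor the promoter that drives the tagged copy. The negative control was untagged wild type (WT) treated and precipitated in the same way. All seedlings were 12 days old, 0 h seedlings were untreated, and 2 h seedlings had their medium replaced by medium with 1 µM flg22. Each group had 2 biological replicates. No mock-treated 2 h seedlings were part of the comparison, so flg22 cannot be told apart from the time and the change of medium. Each list was called against WT of its own time and replicate, so the WT library changed between 0 h and 2 h too.

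WRKY proteins are plant transcription factors that recognise a short DNA motif, the W-box, in the promoters of many defence genes. The peptide flg22 is a stretch of bacterial flagellin that the receptor kinase FLS2 detects at the cell surface, which starts a MAP kinase cascade and broad changes in transcription. WRKY40 and its close relatives WRKY18 and WRKY60 can form complexes with each other, and WRKY40 acts together with WRKY18 to restrain defence gene expression.

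The lists gave, for each peak, the authors' score, on a scale that the headers do not explain, and the number of tags (mapped reads) in the HA library and in WT. The lowest scores of the 2 h lists lay just above 10. A library had 7 to 20 M reads according to the labels' protocols, with no total for any single one. The median tags per peak were 238 and 224.5 in the 0 h lists and 577 and 570 in the 2 h lists. Peak names are numbered, and 73 and 225 numbers were absent from the 2 h lists of replicates 1 and 2. Number 1 was among the absent ones in both, and the rule behind the absences is not stated. A region without a peak in a list therefore has no value there and is not shown to be unbound.

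At 2 h WRKY40 had far more peaks than at 0 h in both replicates. The number rose from 4 to 2017 in replicate 1, which is 504-fold, and from 20 to 3272 in replicate 2, which is 164-fold. The mean log2 ratio was 8.17 ± 1.15 (SD, n = 2), or 287-fold. Both 2 h lists were far longer than both 0 h lists, but an exact two-sided permutation test of 2 libraries against 2 gave p = 0.333, the smallest it allows. Scores of 15 or more were reached by 2 and 4 peaks at 0 h and by 1142 and 1973 peaks at 2 h. The best nuclear score at 0 h was 22.7 in replicate 1 and 30.1 in replicate 2, against 195 and 193 at 2 h.

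**Figure D1:**
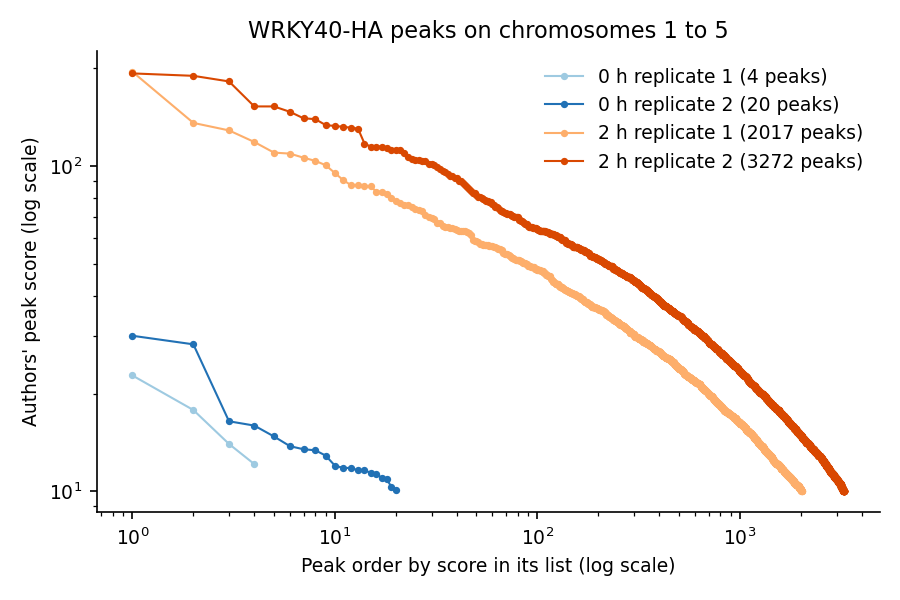
Authors' peak score (vertical axis, log scale) against the order of the peak by score (horizontal axis, log scale) for each WRKY40-HA list on chromosomes 1 to 5, with 1 point per peak. The 0 h lists end at 4 and 20 peaks with scores up to 30.1, whereas the 2 h lists start at 195 and 193 and run to 2017 and 3272 peaks.

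The 0 h list of replicate 1 stood apart. Besides the 4 nuclear peaks it held 27 peaks on the mitochondrial chromosome, and of the nuclear peaks 3 were assigned to AT2G07765, a tRNA locus, AT2G07692 and AT2G07667. These 3 lie on chromosome 2 between positions 3342171 and 3497702 (TAIR10), in a region known for a large copy of the mitochondrial genome. Their HA tags were 277, 199 and 199, against 109, 61 and 79 in WT, and none overlapped a 2 h peak. Without peaks assigned to loci of the AT2G07 series, the numbers were 1 and 20 at 0 h and 2017 and 3271 at 2 h, and the log2 ratio was 9.17 (exact permutation p = 0.333). That alternative was chosen after the data were seen.

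The remaining peak of replicate 1 was at the WRKY40 gene itself. It covered chr1:30380230-30380723, at −3215 bp from the start of WRKY40, with a score of 22.7 and 528 tags against 22 in WT. Replicate 2 had a 0 h peak over the same region, at chr1:30379191-30380743, with a score of 28.3 and 1534 tags against 70 in WT. The authors assigned this wider peak to AT1G80831, a neighbouring hypothetical gene, at 3596 bp. It was the nuclear region that both 0 h lists shared. At 2 h replicate 1 had its best score here, 195 with 12836 tags against 64 in WT. The 2 h list of replicate 2 has no peak over this interval, the nearest one lying 103 bp away, and its number 1 is among the absent ones. The region is therefore not among the reproducible sites. In WRKY18-HA seedlings the same region had scores of 32.4 and 50.3 at 0 h and 58.3 and 92.6 at 2 h.

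The other 19 peaks of replicate 2 at 0 h fell at 18 loci. The best score, 30.1, was at AT1G68680, a hypothetical protein, with 434 tags against 10 in WT. WRKY18 followed with peaks at −1606 bp and −883 bp, whose scores were 16.4 and 10.9. Among the rest were CYP707A3, which inactivates abscisic acid (13.8), the VQ-motif protein gene AT1G17147 (13.5), the receptor kinase gene TMK1 (12.9) and the ethylene response factor gene ERF-1 (11.6). The others with a 2 h peak were AT2G36410 (15.9), the calcium-binding protein gene AT3G29000 (14.8), AT5G60760 (13.4), AT5G67430 (12.0), AT1G69150 (11.8), SMAP1 (11.6), the ankyrin-repeat gene AT4G11000 (11.4), the kinase gene AT1G76360 (11.3) and the dirigent-domain gene AT3G13650 (11.0). AT3G17190 (11.8), AT2G23860 (10.3) and the jasmonate repressor gene JAZ8 (10.1) had a 0 h peak and no WRKY40 peak at 2 h in either list.

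WRKY40 peaks at 0 h lay mostly on regions that were among the strongest at 2 h. Of the 20 peaks of replicate 2 at 0 h, 17 overlapped a 2 h peak of replicate 1 and 16 a 2 h peak of replicate 2. At those 16, the score at 2 h in replicate 2 was 2.69 to 12.3 times the 0 h score (median 6.74), and the tags were 7.55 to 52.9 times the 0 h tags (median 12.2). Both maxima were at the smaller WRKY18 peak (173 tags at 0 h), and the 2 WRKY18 peaks were set against the same 2 h peak. The next largest ratios were 11.9 for the score (AT1G69150) and 27.7 for the tags (AT5G67430). Peaks at 2 h were wider, with a median of 537 bp over each whole list against 358.5 bp in the 0 h list of replicate 2. The reproducible sites that 0 h peaks met, merged from both 2 h lists, ran from 756 bp at TMK1 to 2454 bp at WRKY18. Part of the gain in tags therefore covers bases outside the 0 h peak, and the depth of each library is not given. AT1G68680 went from 434 tags at 0 h to 1843 and 3984 at 2 h, where it was the best-scoring peak of replicate 2. AT1G17147 went from 293 tags to 2470 and 5215, and TMK1 from 206 to 372 and 1555, the smallest gain. In the 2 h list of replicate 2 the 16 peaks met peaks of rank 1 to 458 (median 42.5).

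**Figure D2:**
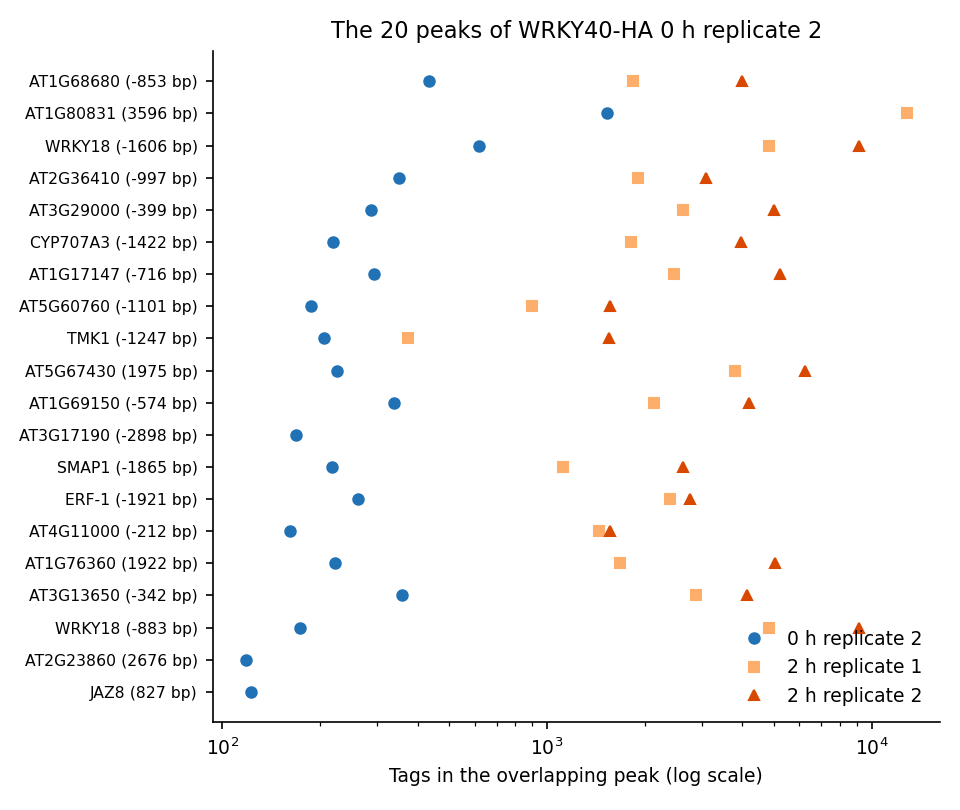
Tags in the HA library (horizontal axis, log scale) at the 20 peaks of WRKY40-HA 0 h replicate 2, ordered by 0 h score, with the distance to the assigned gene's start in bp. Circles show 0 h and squares and triangles the overlapping 2 h peaks of replicates 1 and 2, where listed (both WRKY18 peaks met the same 2 h peak). Wherever a 2 h peak exists it holds more tags, as at AT1G68680 with 434 against 1843 and 3984.

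Among the 1658 reproducible sites, 1643 (99.1%, 95% exact binomial interval 98.5 to 99.5%) overlapped no 0 h peak. The remaining 15 (0.905%, 0.507 to 1.49%) all met a peak of replicate 2. The 0 h lists held only 4 and 20 nuclear peaks, so the share without a 0 h peak was bound to be high wherever those peaks lay. Sites were ordered by the mean rank percentile of their scores in both 2 h lists and split into 3 equal classes, or terciles. Of the 15 sites, 13 were in the strongest tercile, 2 in the middle one and 0 of 553 in the weakest (exact upper bound 0.665%), and 11 were among the 100 best. Their orders ran from 9 to 695 with a median of 47. All intervals given here cover counting error only, and sites of 1 library are not replicates.

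Most of the reproducible sites had a peak of WRKY18 at 0 h, although few had one of WRKY40. A WRKY18-HA peak was listed at 0 h at 927 of the 1658 sites (55.9%, 53.5 to 58.3%). The share was 78.7% in the strongest tercile, 54.7% in the middle and 34.4% in the weakest, so stronger WRKY40 sites more often had one. Nearly all of it came from 1 list, since 54.3% of the sites met a WRKY18 peak of replicate 2, 13.7% one of replicate 1 and 12.1% one of each. The WRKY18-HA 0 h lists held 258 and 1843 nuclear peaks in replicates 1 and 2. All 15 sites with a WRKY40 peak at 0 h had one of WRKY18 as well, beside 912 of the other 1643 (55.5%). Of those 15, 13 were in the strongest tercile, where the share was 78.7%, so the 55.5% is not from sites of like strength. A WRKY33 peak was listed at 0 h at 15 sites (0.905%). The WRKY33-HA 0 h lists held only 8 and 44 nuclear peaks, so this share could not be large. WRKY18 and WRKY40 libraries of 1 replicate and time shared a WT control, so overlaps within a replicate are not independent of it. Across replicates, 13 of the 20 WRKY40 0 h peaks of replicate 2 met a WRKY18 0 h peak of replicate 1, and 17 met one of replicate 2.

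At 2 h, 1598 of the WRKY40 sites (96.4%, 95.4 to 97.2%) also had a WRKY18 peak and 1096 (66.1%, 63.8 to 68.4%) a WRKY33 peak. WRKY33 peaks were listed at 83.4%, 64.1% and 50.8% of the strongest, middle and weakest sites. Only 40 sites (2.41%) had a peak of neither. The best sites without a WRKY18 peak at 2 h were of order 574 (AT1G32928), 807 (PUB26, a ubiquitin ligase gene), 883 (UGT72E1), 1017 (NAGS2) and 1087 (AT5G35735), none of them in the strongest tercile. Sites without a WRKY33 peak reached higher, with PUP7 of order 19, WRKY40 of order 32, AT1G12190 of order 38, AT3G45260 of order 54 and GLIP4 of order 68.

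The strongest reproducible site of WRKY40 at 2 h was in the promoter of PEN3, the ABC transporter ABCG36 that exports defence compounds at the cell surface. It covered chr1:22033252-22034758 at −501 bp from the start, with scores of 136 and 153 in replicates 1 and 2 and 5156 and 5562 tags, against 42 and 43 in WT. BZIP60, a transcription factor of the unfolded protein response, had scores of 119 and 113 at −448 bp (chr1:16137457-16138376), with 3725 and 4760 tags against 24 and 31 in WT. These sites ranked 1 and 4, and neither had a WRKY40 peak at 0 h. Between them were LPA2 (scores 104 and 147), whose site lies at 1672 bp after the start, in the authors' class of gene ends, and AT1G65500 (129 and 115), a hypothetical protein.

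The sites of order 5 to 15 were at genes of varied kinds, several of them described only as hypothetical proteins. AT4G08850, a leucine-rich repeat protein gene, had scores of 90.6 and 140, and NADK1, an NAD kinase gene, 95.3 and 133. CYP81D8, a cytochrome P450 gene, had scores of 87.5 and 113 at −204 bp. ACS6, an enzyme that makes the ethylene precursor ACC, had 77.2 and 115 at −1811 bp. AT1G65490 (106 and 102) lies beside AT1G65500, and a window of 100 kb on chromosome 1 around them held 7 sites. AT1G17147 (74.8 and 153), AT1G68680 (69.8 and 193) and AT1G69150 (70.7 and 140) were those with a 0 h peak, and each scored higher in replicate 2. AT1G62301 (72.9 and 182), AT4G20006 (110 and 92.0) and AT1G29850 (101 and 86.2) completed this range.

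Among the sites of order 16 to 30, AAP5, an amino acid permease gene, had scores of 64.8 and 132, PUP7, a purine permease gene, 79.7 and 81.8, and its relative PUP18, 87.5 and 64.3. PFD3, a gene next to WRKY48, had a wide site of 4020 bp with scores of 62.4 and 107, in which a further peak of replicate 2 (40.2) was assigned to WRKY48. The ethylene response factor genes ABR1 and ERF-1 had scores of 55.9 and 113, and of 76.2 and 65.4. KCS12, an enzyme gene of very-long-chain fatty acid synthesis, had 86.7 and 65.1 at −3603 bp. The others were WRKY18, AT5G03370, AT2G41225, the receptor kinase gene AT2G23200, AT1G64405, the kinase gene AT5G50860, AT5G01732 and AT3G24420.

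WRKY40 bound the genes of its own subgroup at 2 h in both replicates. The WRKY18 site (chr4:15380810-15383263, order 16) had scores of 65.7 and 134 and 4828 and 9156 tags, against 72 and 86 in WT. In the WRKY40 promoter, chr1:30382144-30383794 at −698 bp (order 32), scores were 63.4 and 70.4, with 3771 and 4600 tags against 34 and 45. This promoter site had no peak at 0 h in WRKY40 or WRKY18 seedlings, unlike the region further upstream. The WRKY60 site (order 40) had scores of 63.8 and 62.3 with 2087 and 3205 tags against 38 and 54, and no WRKY40 peak at 0 h. WRKY18-HA seedlings had a 0 h peak at WRKY60 in replicate 1, with a score of 36.8. Signal from the endogenous WRKY40 locus and from a transgene copy of the same sequence cannot be told apart.

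Both 2 h replicates ranked the sites alike in part. Spearman's rho of their scores was 0.605 over the 1658 sites, a description only, since sites share libraries and depth. Of the 100 best peaks of each list, 94 in replicate 1 and 97 in replicate 2 lay in a reproducible site. The 100 best of both lists had 44 sites in common, and the 500 best had 316. Scores were higher in replicate 2 at 1242 sites, with a median ratio of 1.33, and tags with a median ratio of 1.41. Median scores fell from 30.4 and 44.4 in the strongest tercile to 16.8 and 23.8 in the middle and 12.0 and 15.0 in the weakest, and median widths from 920 to 716 and 584 bp.

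**Figure D3:**
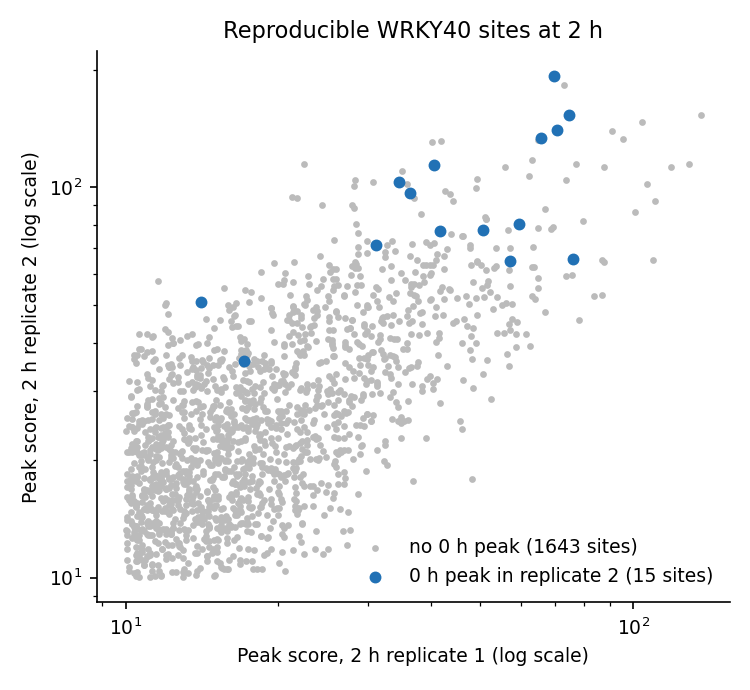
Score of each of the 1658 reproducible WRKY40 sites in 2 h replicate 1 (horizontal axis) and replicate 2 (vertical axis), both on log scales. The 15 sites with a 0 h peak (blue) lie mostly in the upper right, 11 of them among the 100 best, and the 1643 others (grey) run down to the lowest scores.

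WRKY40 sites were densest just before gene starts. Positions here are those of the replicate 1 peak unless replicate 2 is named. The midpoint of 864 sites (52.1%, 49.7 to 54.5%) lay from 1000 bp before to 100 bp after the start of the assigned gene. The fullest bin of 100 bp was −300 to −201 bp with 156 sites, followed by −200 to −101 bp with 136. Only 45 sites (2.71%) lay in the first 100 bp after the start. The share in the promoter was 53.7%, 52.7% and 49.9% in the strongest, middle and weakest terciles, with overlapping intervals. The authors' own classes put 52.9% of sites at promoters, 21.3% between genes, 18.3% at gene ends, 4.95% in introns and 1.39% in exons.

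**Figure D4:**
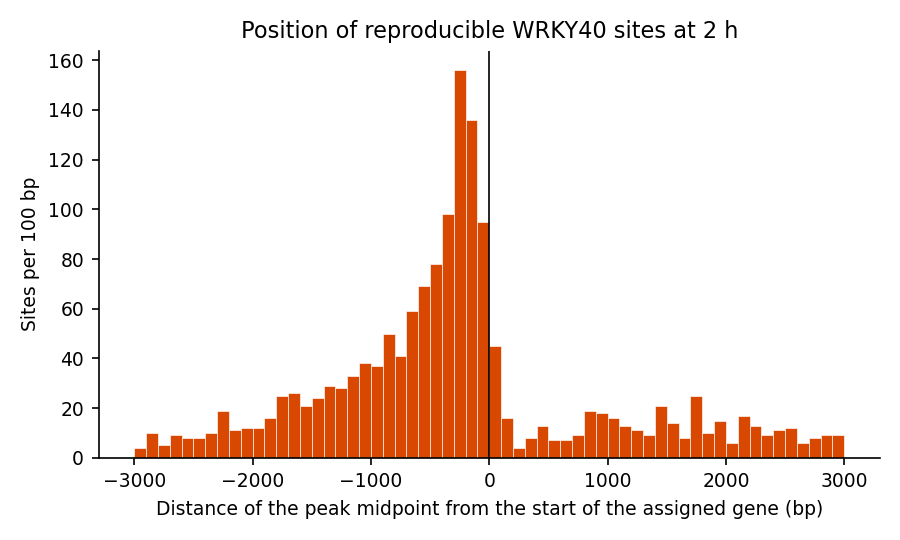
Number of reproducible WRKY40 sites per 100 bp (vertical axis) by the distance of the replicate 1 peak's midpoint from the start of the assigned gene in bp (horizontal axis, negative before the start), for distances within 3000 bp. The fullest bars are −300 to −201 bp with 156 sites and −200 to −101 bp with 136.

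Sites also lay far from starts. By the replicate 1 peak there were 160 (9.65%) more than 2000 bp before the start and 281 (16.9%) more than 1000 bp after it. The best distal ones were AT1G62301, KCS12, ABR1 at −3727 bp, the receptor kinase gene AT4G37250 at −3480 bp (scores 63.3 and 62.6) and EBF2, an F-box gene for the degradation of the ethylene signalling factor EIN3, at −2218 bp (42.7 and 97.7). The best sites more than 1000 bp past the start were LPA2, AT1G65490, AT1G29850, AT2G41225 and PFD3. The gene assigned by distance need not be the one regulated from such a site, and the replicates' peaks had different genes at 43 sites.

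WRKY40 sites were not evenly spread over genes. Of the 1555 target genes, 1409 had 1 site, 136 had 2, 9 had 3 and 1 had 4. The gene with 4 was AT5G56960, a bHLH factor (bHLH041), with sites at −2337, −607, 2442 and 4036 bp whose scores in replicate 1 were 15.3, 32.4, 15.3 and 20.5. ACS6 had 3, at −1811, −195 and 2032 bp, with scores of 77.2, 19.5 and 29.5 in replicate 1 and 115, 47.6 and 36.6 in replicate 2. AAP5, the RING-finger gene AT5G43420 (ATL16), AT5G56980 and AT5G38310 also had 3. The densest 100 kb window, chr5:23000001-23100000, held 12 sites, of which 4 belonged to AT5G56960 and 3 to AT5G56980. Those of AT5G56980 lay close beside each other, at chr5:23057708-23058560, chr5:23058600-23058891 and chr5:23058918-23059930. Such neighbours were counted as separate sites because their peaks did not overlap. The next, chr4:12100001-12200000, held 10, and 9 of them were at receptor kinase genes of the CRK family. Numbers of sites per 1000 loci ran from 35.3 on chromosome 2 to 48.9 on chromosome 1.

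Target genes were compared with a RefSeq gene table. It held 1532 of the 1555, which is 4.04% of its loci on chromosomes 1 to 5, and 1469 were protein-coding, which is 5.35% of protein-coding loci. The latter is the background against which the shares of 21 gene groups are read. Each 2 h list taken by itself gave 6.07% in replicate 1 and 9.53% in replicate 2, and 3.45% of protein-coding loci had a reproducible site with its midpoint within 1000 bp of the start. In 19 groups the share was above 5.35%, and in 10 it was more than 3 times as high. These are counts without a test. Groups were defined by symbols or loci and can leave out members of a family, so no share need be that of a whole family. Neighbouring members of a gene cluster can share a site, and near-identical copies can share reads.

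**Figure D5:**
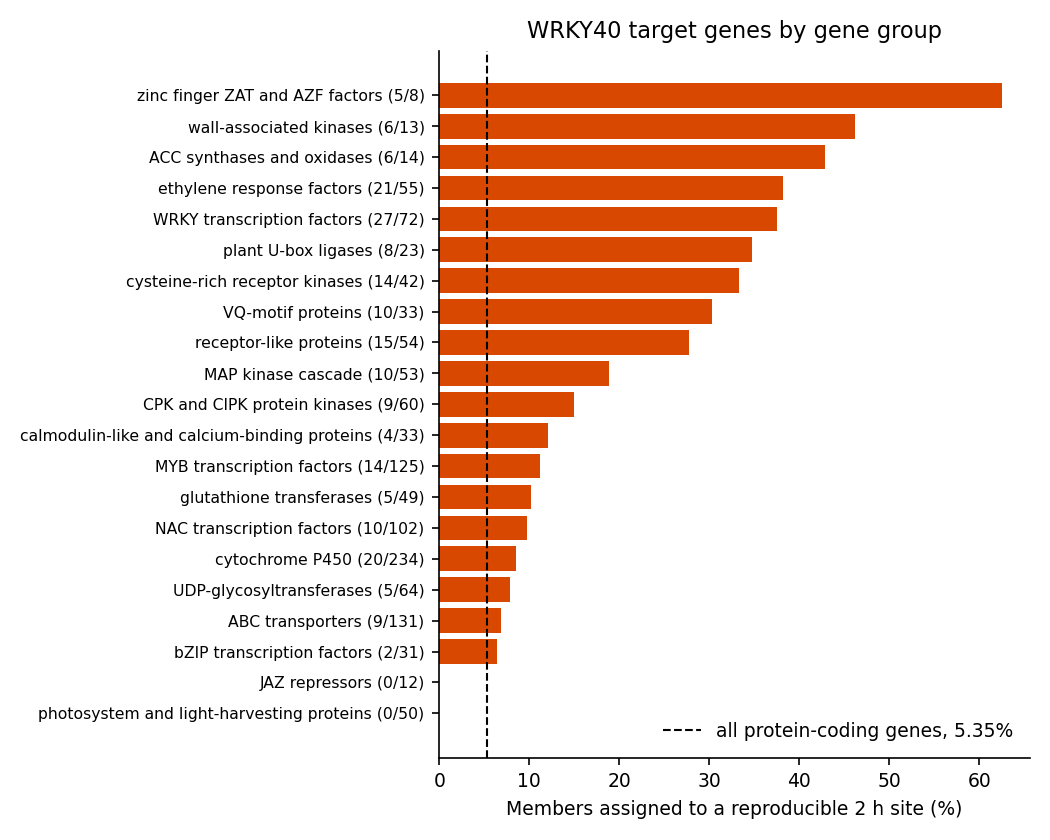
Percent of the members of each gene group that were assigned to a reproducible WRKY40 site at 2 h (bars, horizontal axis), with bound and all members in brackets. The dashed line is the share over all protein-coding genes, 5.35%. The bars run from 62.5% for ZAT and AZF zinc finger genes to 6.45% for bZIP genes, and JAZ repressors and photosystem genes have 0 bound members of 12 and 50.

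Among transcription factors, WRKY40 was at 27 of 72 WRKY genes (37.5%), of which 18 had a midpoint within 1000 bp of the start. After WRKY18, WRKY40 and WRKY60 came WRKY15, with scores of 64.1 and 51.7. WRKY48 itself had a site past its start with scores that differed widely, 22.4 in replicate 1 and 115 in replicate 2, besides its peak in the wide site of PFD3. WRKY33, a positive regulator of defence against fungi, had a weaker site at −310 bp (order 1178), with scores of 17.4 and 13.7. Of the 55 genes grouped by symbol or locus as ethylene response factors 21 were bound (38.2%), but only 8 of these within 1000 bp. The group held RAV2 but not RAV1, which also had a reproducible site, so 38.2% is not a share of the whole family. After ABR1 and ERF-1 came AT3G23220 (39.7 and 63.2), ERF15 (28.8 and 33.4) and ERF14 (21.5 and 64.6). Of 8 zinc finger genes of the ZAT and AZF kind 5 were bound (62.5%), all within 1000 bp, namely AT2G37430 (30.8 and 34.7), ZF1 (34.4 and 25.1), ZF2 (32.4 and 21.8), STZ (32.7 and 19.4) and ZAT6 (12.0 and 13.0).

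Other transcription factor families were closer to the background. There were 14 of 125 MYB genes (11.2%), with the best scores at MYB31 (57.0 and 61.4), MYB96 (43.5 and 54.6) and MYB51 (26.3 and 56.3), a regulator of indole glucosinolate synthesis. Of 102 NAC genes 10 were bound (9.80%), led by NAC061 (37.8 and 56.1) and by NAC048 and NAC049, which share a site. Of 31 bZIP genes 2 were bound (6.45%), BZIP60 and bZIP2 (23.0 and 56.4). VQ-motif proteins, which can bind WRKY factors, were bound at 10 of 33 genes (30.3%). By their best site, 9 of these were among the 500 best of all 1658 sites, beside 12 of the 27 bound WRKY genes. AT1G17147 led them, followed by AT5G53830 (53.7 and 69.8), AT2G41180 (42.9 and 69.7, where the replicate 2 peak was assigned to a neighbour), AT1G21326 (55.2 and 49.9) and AT1G80450 (39.8 and 59.5).

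Genes of cell-surface receptors were bound mostly near their starts. Of 42 cysteine-rich receptor kinase genes 14 were bound (33.3%), 13 within 1000 bp, led by CRK14 (73.7 and 59.1 at −101 bp), CRK11 (50.2 and 63.2 at −60 bp) and CRK3 (57.7 and 50.3). Of 13 wall-associated kinase genes 6 were bound (46.2%), all within 1000 bp, led by WAKL10 (42.4 and 61.9), WAKL4 (37.7 and 35.6) and WAK2 (27.7 and 43.5). They included RFO1 (12.1 and 42.7), a gene of resistance to Fusarium. Of 54 receptor-like protein genes 15 were bound (27.8%), 14 within 1000 bp, led by RLP9 (38.3 and 44.8) and RLP21 (28.8 and 39.8). For comparison, 64.5% of all protein-coding target genes had a midpoint within 1000 bp of the start.

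Genes of downstream signalling were bound in shares from 12.1 to 34.8%. In the MAP kinase cascade 10 of 53 genes were bound (18.9%), led by MAPKKK5 (40.8 and 65.1), MPK11 (36.3 and 53.5), a kinase activated by flg22, and MKK9 (27.4 and 26.6). Of 60 calcium-dependent and CBL-interacting kinase genes 9 were bound (15.0%), led by CIPK8 (40.2 and 131), CPK9 (52.9 and 48.7) and CPK27 (14.5 and 33.4). Of the 33 genes grouped by symbol or locus as calmodulin-like and calcium-binding proteins 4 were bound (12.1%), led by CML11 (24.4 and 90.4). The group left out AT3G29000, described as a putative calcium-binding protein, whose reproducible site had higher order with scores of 50.5 and 77.9. Plant U-box ligases, several of which restrain flg22 responses, were bound at 8 of 23 genes (34.8%). The best were PUB12 (41.5 and 42.5), PUB17 (22.8 and 51.4), PUB25 (24.1 and 20.2) and PUB26 (16.9 and 22.4). After them came PUB24 (11.4 and 24.1), PUB23 (10.2 and 19.0), PUB45 (14.6 and 12.0) and PUB22 (11.5 and 11.5). The sites of PUB23, PUB45 and PUB22 were weak, of order 1458, 1459 and 1606.

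Enzymes of ethylene synthesis were bound at 6 of 14 genes (42.9%). They included the ACC synthase genes ACS6, ACS2 (29.5 and 44.2), ACS7 (29.6 and 42.2) and ACS8 (16.7 and 30.1), and the ACC oxidase gene EFE (33.2 and 41.2). Of 234 cytochrome P450 genes 20 were bound (8.55%), close to the background. After CYP81D8 came CYP71B23 (52.1 and 54.0), CYP707A3 (34.6 and 103), CYP81F2 (28.4 and 63.7), which modifies indole glucosinolates, and CYP96A5 (50.5 and 33.2). The list also held PAD3, CYP71A12, CYP79B2 and CYP79B3, which act in the synthesis of camalexin and other indole compounds. The best sites of PAD3 (20.0 and 56.6) and CYP79B2 (20.9 and 30.9) were distant, at −2206 and −2243 bp. That of CYP79B3 (19.1 and 18.9) was in an intron, and that of CYP71A12 (11.6 and 17.1) was weak, of order 1395. Glutathione transferase genes were bound at 5 of 49 (10.2%), UDP-glycosyltransferase genes at 5 of 64 (7.81%) and ABC transporter genes at 9 of 131 (6.87%). In the last group PEN3 was far above the next, PGP21 (56.2 and 50.6) and GCN1 (40.2 and 30.5).

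No reproducible site was assigned to any of the 12 JAZ repressor genes of jasmonate signalling or of the 50 photosystem and light-harvesting genes. At a background of 5.35% few bound members would be counted in groups of these sizes, so for the JAZ genes 0 is near that share. In the single lists of replicates 1 and 2, peaks were assigned to 1 and 3 of the JAZ genes and to 1 and 0 of the photosystem genes, beside 6.07% and 9.53% of protein-coding loci.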

How the data were processed

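ChIP DNA of WRKY40-HA seedlings was measured at 0 h and 2 h with 2 replicates each. The submitters' processing notes name build TAIR10 and the tools HOMER, Bowtie 0.12.7, cutadapt 1.2.1 and FastQC 0.11.2. The peak calling threshold and the treatment of reads with several matches are not given in these sources. The DNA was amplified linearly before library construction, per the labels' protocols, so tags are not independent molecules. Each library has its own list, per the file headers. The authors deposited for each peak a score, tag counts of the HA and WT libraries, a fold enrichment (ratio) of tags over WT and a distance to a gene start. How the authors scaled the WT tags in that ratio is not stated. Distances were measured from the peak midpoint, since midpoints led back to 1 start within 2 bp for 394 of 394 genes with at least 3 peaks.

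Peaks were merged at 1 bp of overlap in Python 3.11.15 with pandas 2.3.3, numpy 2.4.6, scipy 1.17.1 and matplotlib 3.10.9, and merging was tested on simulated peaks. Intervals are Clopper-Pearson. Where a site held several peaks of a list, the best-scoring one gave its values. Gene symbols came from RefSeq (TAIR10.1), whose coordinates were not used. Groups were defined by symbols or loci. Named genes were all 0 h peaks, the 30 best sites, up to 5 best genes per group, sites at WRKY40, WRKY18 and WRKY60, genes with most sites, and the best distal, downstream, single-replicate, rank-discordant and WRKY18-free or WRKY33-free sites; a few further genes of known function were named after their values were seen. Members and lists were chosen with earlier results of these data known. Alternatives were the overlap rule, score and list limits, promoter definition and leaving out each replicate.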

Additional observations from a re-analysis of the deposited data

Results flagged for a closer look

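The WRKY40-HA 0 h list of replicate 1 held 27 peaks on the mitochondrial chromosome, outside the nuclear comparison, and the other WRKY40-HA lists held 0 there. The 0 h lists of replicate 1 of the other lines, which shared its WT control, held 2 (WRKY18-HA) and 1 (WRKY33-HA), and their replicate 2 and 2 h lists held 0. Their scores were 10.03 to 39.2 in the HA library and 2.81 to 12.1 in WT at the same places. They held 222 to 2293 tags against 81 to 1252 in WT, and the authors' fold enrichment of tags was 1.33 to 3.07 with a median of 1.81. The fold enrichment of the nuclear peak at WRKY40 in the same list was 8.65.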

How the results depend on the processing

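The 2 h to 0 h log2 ratio of peak numbers kept its direction throughout. It was 6.69 with all chromosomes, 9.05 for scores of 15 or more, and 7.35 to 8.98 without 1 replicate. With the replicate number as a block it was 8.17, with an exact sign-flip p of 0.5, the smallest that 2 pairs allow. Replicate 1 had the shorter list at both times, and 1 number per list allows no further check of the pairing. Using the better-scoring 50% of each 2 h list gave 799 sites, 779 genes, 98.2% without a 0 h peak, a WRKY18 0 h share of 70.2% and a rho of 0.577. With such short 0 h lists, the share without a 0 h peak was bound to stay high in every alternative. Leaving out 1 replicate at 2 h gave 2017 to 3272 sites. Leaving 1 out also gave 1769 to 2770 genes, 99.1 to 100% of sites without a 0 h peak (99.5% without replicate 1 at 2 h) and a WRKY18 0 h share of 44.9 to 49.9%. That share was 53.4% for maxima within 200 bp, 13.7% with WRKY18 replicate 1 alone and 12.1% with both lists. The promoter share was 64.7% from 2000 bp before the start to the start. The cause of these shifts was not tested, beyond fewer or more peaks entering. Of 63 alternatives for the gene groups 48 stayed within 1.5 times the main count. Without replicate 1 the bound members were 29 for MYB, 38 for cytochrome P450, 18 for ABC transporter, 18 for NAC, 16 for CPK and CIPK, 9 for UDP-glycosyltransferase and 3 for JAZ genes, against a background of 9.53%. Without replicate 2 there was 1 JAZ and 1 photosystem gene. With midpoints within 1000 bp there were 8 ethylene response factor, 7 MYB, 3 NAC, 5 MAP kinase cascade, 5 U-box and 3 ACC enzyme genes. W-box counts were not run, since no genome was used here. Depth per library is unknown, and a list gives no value below its lowest score.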

Other observations

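Some strong WRKY40 peaks at 2 h were listed in 1 replicate only, and their genes are not among the target genes unless another site was assigned to them. Replicate 1 alone had 295 sites and replicate 2 alone 1596, with median scores of 12.4 and 13.6. The best of replicate 1 after the upstream region of WRKY40 were IQD6 (score 83.6, 3688 tags against 29 in WT), APK, an enzyme of sulfur metabolism (82.0), AT4G23030 (55.5) and GolS2 (52.2). The best of replicate 2 were FH4, a formin that acts on actin (190, 10823 tags against 71), AT5G61560, a U-box gene (80.0), AT5G05190 (74.6), EDS16, the isochorismate synthase of salicylic acid synthesis (60.9), and TBL42 (51.6). The FH4 peak lies 2578 bp from the nearest one of the other list, and IQD6 2245 bp, whereas AT5G05190, GolS2 and EDS16 lie 202, 189 and 123 bp from one. Absent list numbers among the best peaks are a known limit here, and whether they account for these differences was not tested.

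The reproducible sites whose rank percentile differed most between the replicates are named here for each direction. AT1G56630 (27.3 and 12.2), BGLU31 (25.1 and 11.8), AT5G23510 (24.5 and 11.5), the ABC transporter gene MRP3 (22.5 and 11.5) and a second site of MYB51 in an exon (20.6 and 10.4) ranked higher in replicate 1. AT2G36430 (10.6 and 42.1), AT5G56240 (10.5 and 37.2), HAP8 (10.4 and 37.1), the transcription factor gene RAV1 (10.4 and 36.4) and WPP2 (10.2 and 32.0) ranked higher in replicate 2. All lay beyond order 1000, near the lower end of at least 1 list. The choice itself keeps out the best orders, since the order averages the rank percentiles of both lists.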
